A study of Mus musculus with 8 samples.

Results

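The genes described here encode the signals with which Paneth cells, the granule-bearing secretory cells at the crypt base of the small intestine, are known to act on the neighbouring stem cells. They were taken by symbol from a list of such signals, with no value used as a criterion: Wnt3, Notum, Egf, Tgfa, Areg, Dll1, Dll4, Jag1 and Bst1. All 9 were found among the 55414 gene IDs of the counts table, and 7 of them passed the filter on low counts that left 11929 genes for testing. RNA was sequenced from Paneth cells sorted by FACS out of mouse small intestine. The TG group held 4 libraries from transgenic mice (genotype DT TG) in which Paneth cells express diphtheria toxin, and the other 4 libraries, the WT group, came from wild type animals. Diphtheria toxin stops protein synthesis by inactivating elongation factor 2. The comparison concerned the purified cells obtained after depletion of mature Paneth cells. The study sorted such cells from C57BL/6J mice, but the strain, age and sex of these 8 mice are not given in the labels. The promoter that drives the toxin is not given in the sources used here, and whether the sorted TG cells made the toxin was not checked.

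Stem cells at the crypt base need Wnt, EGF and Notch signals at the same time. Wnt ligands bind Frizzled and Lrp receptors and stabilise beta-catenin, EGF family ligands drive proliferation through ErbB receptors, and Delta and Jagged ligands on a cell's surface switch on Notch in the cell that touches it, which keeps that neighbour from entering the secretory lineage. Paneth cells also have signals that can restrain or modulate the stem cell, such as Notum, which inactivates Wnt ligands, and Bst1, an ectoenzyme that makes cyclic ADP-ribose from NAD.

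Total counts were 13107397 to 16218434 per library in TG and 13601510 to 15018711 in WT. Levels are given as CPM, the counts per 1000000 of the library size adjusted by TMM factors, and 3 counts, taken as the floor of detection, correspond to 0.169 to 0.240 CPM. Such floors cover counting error only. Of the 12 Paneth markers examined, all were tested, 3 were lower in TG (Mmp7, Ang4 and Mptx2) and 0 were higher, also at an unadjusted p under 0.05 and with DESeq2 and limma voom. With 1 library omitted in turn, Mptx2 was called in 8 of 8 fits, Mmp7 in 7 (lost without TG replicate 2) and Ang4 in 2, and Ang4 was also lost with a term for replicates 1 and 2 against 3 and 4. All 12 Paneth markers together summed to 352800 to 532200 CPM in WT and 371800 to 456400 CPM in TG. The largest parts of this sum were Lyz1 (means of 166400 CPM in WT and 175200 CPM in TG) and Defa24 (138000 and 120700 CPM). Neither was called, and the sum says little about the 3 lower genes, such as Mptx2 (15340 and 6032 CPM). Stromal markers, which would mark the Wnt-secreting cells under the epithelium, summed to 1.05 to 1.49 CPM in WT and 0.915 to 1.52 CPM in TG, with Col1a2, Lum and Foxl1 at 0 in all libraries. Endothelial markers, of interest because vessels also express Dll4, summed to 1.27 to 3.20 CPM in WT and 0.985 to 2.44 CPM in TG, with Cdh5, Kdr, Emcn and Cldn5 at 0. The markers at 0 are named after their values were seen. Of 12 enterocyte markers 5 were higher in TG and 0 lower (Alpi, Apob, Apoa4, Mttp and Slc5a1), of which Apoa4 and Slc5a1 were called in 2 of the 8 fits with a library omitted. DESeq2 called 9 higher and limma voom 4, and 9 were higher at an unadjusted p under 0.05, with 0 lower in each case. The summed levels of 469.4 to 538.9 CPM in WT and 481.9 to 674.7 CPM in TG overlapped, but most of this sum was Vil1 (393.1 CPM in WT, 347.1 CPM in TG), the one enterocyte marker with a fitted value lower in TG. Immune markers, mostly Cd74, summed to 281.3 to 471.3 CPM in WT and 60.5 to 195.1 CPM in TG, without overlap. Of these, 0 of the 2 tested were called in the edgeR fit, with 1 lower at an unadjusted p under 0.05, with DESeq2 and with limma voom. The means were 329.1 CPM in WT and 91.9 CPM in TG for Cd74 (edgeR adjusted p of 0.0577) and 14.5 and 19.6 CPM for Lyz2. Of 7 stem cell markers 1 was higher (Slc12a2) and 1 lower (Smoc2), and of 4 enteroendocrine markers tested 1 was lower (Tac1). DESeq2 and limma voom each called 2 stem cell markers higher and 1 lower, 3 were higher at an unadjusted p under 0.05, and limma voom called 2 enteroendocrine markers lower. The Smoc2 call was lost when libraries were scaled by total counts, and Tac1 was called in 4 of the 8 fits with a library omitted. Of 8 goblet and 5 tuft markers tested 0 were called by edgeR or DESeq2, with 1 goblet marker lower at an unadjusted p under 0.05 and with limma voom. Goblet markers were abundant, with sums of 10900 to 12670 CPM in WT and 8693 to 12000 CPM in TG. Stem cell markers summed to 2155 to 2889 CPM in WT and 2421 to 3262 CPM in TG. The part of these other cell types in the results below was not tested. In both groups replicates 1 and 2 had 0 counts of Y-linked genes while replicates 3 and 4 had 897 to 1564. This is the pattern of female and male mice, although the labels do not give the sex. Splits below by replicates 1 and 2 against 3 and 4 are thus also splits by Y-linked counts.

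The sequences before the start sites of the ligands with the highest level (Wnt3), the clearest difference between the groups (Egf) and the lowest level (Areg) are shown to let their composition be compared. Each gives the 250 bases upstream of the start in RefSeq's promoter table (build GRCm38.p6, which is not the mm39 build of the counts), on the strand of the gene. Capitals mark matches on either strand to 6 motifs. The letters searched were TATAAA for the core promoter box of that name, CCAAT for the box bound by NF-Y, GGGCGG for the GC box bound by Sp1, CTTTGAT for TCF/LEF, the factors of Wnt signalling, TGGGAA for RBPJ, the factor of Notch signalling, and CAGCTG for an E-box bound by ATOH1. The Wnt3 sequence lies at chr11:103773925-103774174 on the plus strand, that of Egf start site 1 at chr3:129755323-129755572 on the minus strand and that of Areg at chr5:91139349-91139598 on the plus strand.
Wnt3: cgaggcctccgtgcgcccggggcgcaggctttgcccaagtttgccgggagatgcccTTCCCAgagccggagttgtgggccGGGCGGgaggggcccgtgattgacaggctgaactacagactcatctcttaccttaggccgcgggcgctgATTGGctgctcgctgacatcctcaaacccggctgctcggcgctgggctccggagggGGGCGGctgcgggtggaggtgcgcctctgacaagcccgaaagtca
Egf: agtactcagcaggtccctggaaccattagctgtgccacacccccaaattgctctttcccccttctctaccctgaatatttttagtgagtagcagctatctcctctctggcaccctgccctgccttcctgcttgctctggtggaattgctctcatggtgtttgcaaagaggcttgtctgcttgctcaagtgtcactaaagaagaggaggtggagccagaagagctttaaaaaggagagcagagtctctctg
Areg: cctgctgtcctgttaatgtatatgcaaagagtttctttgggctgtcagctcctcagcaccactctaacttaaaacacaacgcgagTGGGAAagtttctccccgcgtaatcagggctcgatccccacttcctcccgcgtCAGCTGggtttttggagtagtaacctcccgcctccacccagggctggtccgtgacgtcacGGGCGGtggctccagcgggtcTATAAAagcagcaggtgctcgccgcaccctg

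The Wnt3 sequence had 68.0% G and C and 22 CpG dinucleotides, with 1 CCAAT box, 2 GC boxes and 1 RBPJ match. The first of the 2 Egf start sites had 50.4% G and C, 0 CpG and no match to any of the 6 motifs. The second Egf start site had 52.0% G and C and 15 CpG, and no match either. The Areg sequence had 57.2% G and C, 15 CpG and a TATA box 31 to 26 bases before the start, together with a GC box, an RBPJ match and an E-box. Over all 32851 promoters of the table the median was 52.4% G and C and 6 CpG. Of these promoters, 12.4% held the TATA box, 33.8% the CCAAT box, 32.7% the GC box, 3.21% the TCF/LEF motif, 21.6% the RBPJ motif and 13.0% the E-box. Entries were found for 7 of the 9 genes, and Bst1 and Notum had none. A match describes letters in this window and no factor binding was measured.

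The levels of the 9 genes spanned a wide range. On the scale of CPM per kilobase of exon, averaged over the 8 libraries, Wnt3 stood first at 57.2. Dll4 followed at 11.0, Dll1 at 7.87, Egf at 3.17, Tgfa at 2.33, Jag1 at 1.20, Notum at 0.525, Bst1 at 0.171 and Areg at 0.0636. Wnt3 thus ranked at percentile 97.9 of the tested genes, and Areg at percentile 0.26. Several neighbours in this order were not separated. In WT alone the last places were turned round, with Areg at 0.0900 and Bst1 at 0.0333, and without TG replicate 4 the mean of Bst1 over the libraries fell to 0.0973. In WT, Dll1 (5.77 to 7.93) lay below Dll4 (9.35 to 13.7), whereas in TG their ranges met (6.80 to 10.8 and 9.94 to 11.9). Egf and Tgfa overlapped in WT (2.01 to 2.83 and 1.99 to 3.19), while in TG every Egf value (3.18 to 4.46) lay above every Tgfa value (2.07 to 2.42). Dividing by the longest transcript in place of all exons raised Notum to 0.808, Tgfa to 3.38, Egf to 6.78 and Dll1 to 9.59, with the same order of the 9 genes.

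**Figure D1:**
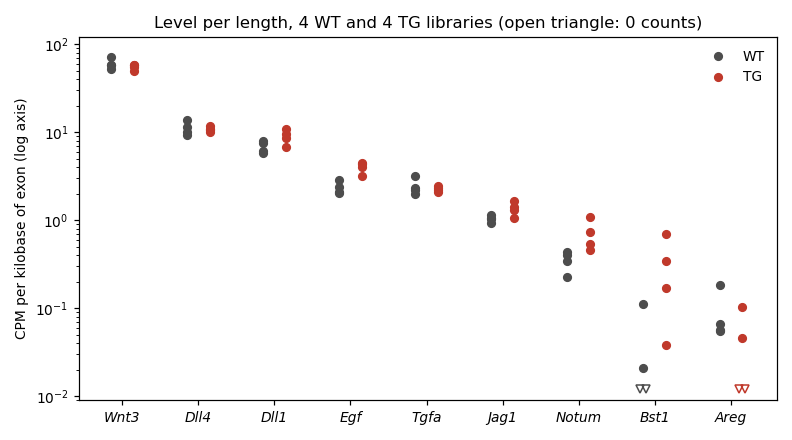
Level of each gene in CPM per kilobase of exon (log axis), with 1 point per library (grey WT, red TG, 4 each) and open triangles for libraries with 0 counts. Wnt3 averages 57.2 and Areg 0.0636, and the Egf points of TG (3.18 to 4.46) lie above those of WT (2.01 to 2.83).

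Across all genes tested with edgeR, 8.26% were higher in TG and 9.65% were lower at an adjusted p below 0.05. Of the 7 tested niche genes 2 were called higher, Egf and Notum, and 0 were called lower. At an unadjusted p under 0.05 the counts were 4 and 0, with Dll1 and Jag1 added. Among these 7, DESeq2 called the same 2 higher and 0 lower, and limma voom called 1, Egf, and 0. DESeq2 also called Bst1, which the filter of the edgeR fit had left out. The median log2 fold change of the 7 genes was 0.38, beside 0.01 over all genes tested. Where a gene is said to have risen or fallen, its WT mean is given first and its TG mean second. In a bulk library, fewer cells of a type and less RNA per cell cannot be told apart. The study describes its sorts as made from single mice, but the labels do not say so for these libraries, and p-values measure the spread between these libraries.

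**Figure D2:**
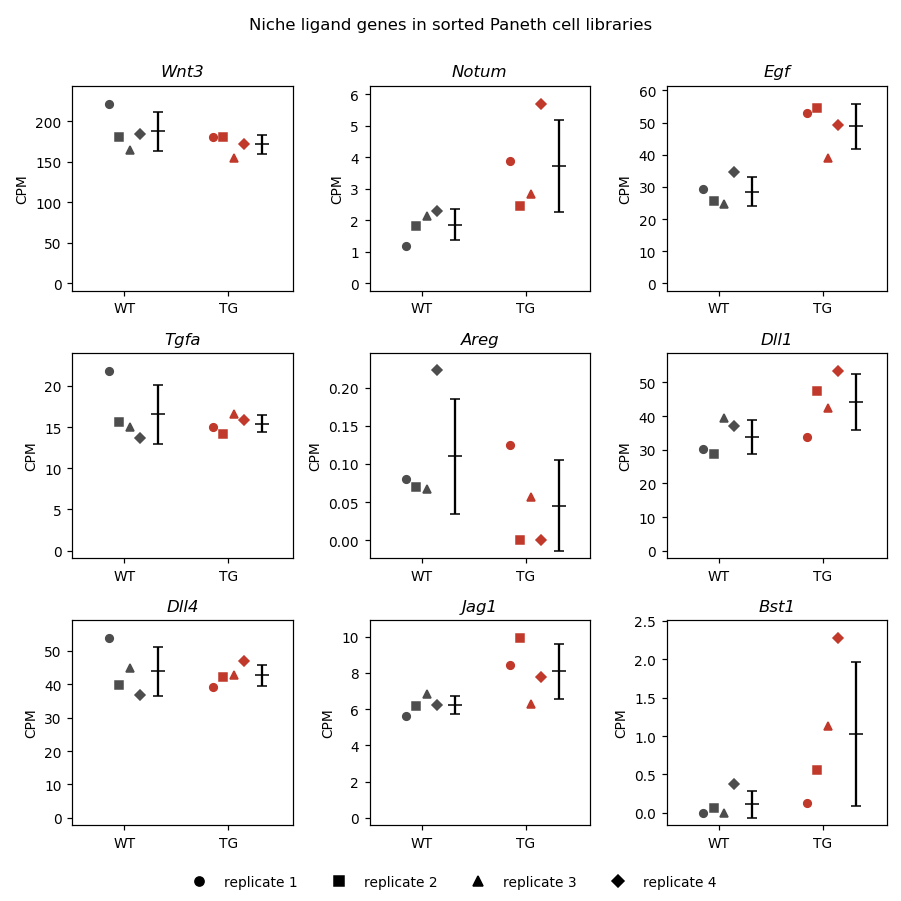
CPM of the 9 genes in each library (grey WT, red TG, marker shape for the replicate number), with the mean and SD of each group of 4 beside the points. The groups do not overlap for Notum and Egf, and Wnt3, Tgfa, Dll4, Dll1, Jag1, Areg and Bst1 have overlapping values.

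Wnt3 is the main canonical Wnt ligand made by the crypt epithelium itself. The gene (ENSMUSG00000000125, chr11:103664976-103708853, plus strand, mm39) had 180.3, 180.4, 154.8 and 172.0 CPM in TG replicates 1 to 4. In WT replicates 1 to 4 it had 222.1, 180.8, 164.3 and 184.1 CPM. The ranges overlapped, and WT replicate 1 was the highest of the 8 libraries. The means were 171.9 ± 12.0 CPM in TG and 187.8 ± 24.4 CPM in WT (SD, n = 4 each). The log2 fold change of TG over WT was -0.13 ± 0.10 (SE) at an edgeR adjusted p of 0.399. The ratio of 0.915 had a 95% interval from 0.788 to 1.06. Wnt3 was called in 0 of the 19 other settings, with log2 fold changes from -0.19 to 0.00.

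Of the 24 other genes for Wnt ligands, R-spondins and Wnt secretion, 12 had 0 counts in all 8 libraries and 5 were tested. With edgeR 0 were called in either direction, 1 higher and 1 lower had an unadjusted p under 0.05, and DESeq2 and limma voom called 0. Wls, the carrier that takes lipid-bearing Wnts to the cell surface, had 64.9 ± 8.53 CPM in WT and 59.6 ± 1.88 CPM in TG (SD, n = 4 each), a log2 fold change of -0.12. Porcn, the acyltransferase that attaches that lipid, had a log2 fold change of -0.01. Wnt5a, a ligand of the non-canonical branch, had 2.23 CPM in WT and 2.68 CPM in TG, and was picked for mention after its values were seen. R-spondins, which amplify Wnt signals and are known from stromal cells, had at most 1 count per gene over the 8 libraries.

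Notum is a secreted enzyme that removes the lipid from Wnt ligands and so inactivates them. The gene (ENSMUSG00000042988, chr11:120541446-120552019, minus strand) had 62, 35, 50 and 75 counts in TG replicates 1 to 4 and 15, 26, 32 and 31 counts in WT replicates 1 to 4. These corresponded to 3.88, 2.46, 2.82 and 5.70 CPM in TG and 1.20, 1.81, 2.14 and 2.31 CPM in WT. All TG values lay above all WT values, with TG replicate 4 the highest and WT replicate 1 the lowest. Groups did not overlap in this direction for 2 of the 7 niche genes tested, beside 10.0% of all genes tested, and in the other direction for 0 of the 7, beside 12.0%. Notum rose from 1.87 ± 0.489 to 3.72 ± 1.45 CPM (SD, n = 4 each), with a log2 fold change of 0.98 ± 0.30 (SE) and an edgeR adjusted p of 0.0345. The ratio was 1.97 with a 95% interval from 1.27 to 3.05. The call rested on single libraries. It was lost without TG replicate 1 (adjusted p of 0.0897), TG replicate 4 (0.103), WT replicate 1 (0.0789) or WT replicate 2 (0.0603), with log2 fold changes of 0.70 to 1.13 over all fits that left out 1 library. With limma voom the adjusted p was 0.0769. Within replicates 1 and 2 the log2 fold change was 1.06 (edgeR adjusted p of 0.124) and within replicates 3 and 4 it was 0.92 (0.241), neither called.

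Other Wnt antagonists were examined beside Notum. Of 13 genes 5 were tested, 2 were higher and 0 lower, and the median log2 fold change was 0.77. Wif1, which binds Wnt ligands outside the cell, rose from 1.96 ± 0.958 to 5.92 ± 0.639 CPM (SD, n = 4 each), with a log2 fold change of 1.60 ± 0.29 (SE) and an edgeR adjusted p of 0.00301. It was called in each of the 8 fits with 1 library omitted. Apcdd1, a membrane inhibitor of Wnt receptors, rose from 3.07 to 5.25 CPM with a log2 fold change of 0.77 and an edgeR adjusted p of 0.0216, which was lost without TG replicate 2 or TG replicate 3. Dkk3, a member of the Dickkopf family, had 8.58 CPM in WT and 14.6 CPM in TG and was not called by edgeR (adjusted p of 0.0559), but it was called by DESeq2, limma voom and edgeR with total counts only, which each called 3 of these genes higher. Kremen1, a receptor for Dickkopf proteins, had a log2 fold change of 0.02. Summed over the 13 genes, the level was 27.2 to 38.4 CPM in WT and 42.5 to 51.4 CPM in TG, without overlap.

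Among 20 Wnt receptors and cofactors 17 were tested, 3 were higher and 0 lower. The Frizzled receptor Fzd1 had a log2 fold change of 1.26 ± 0.35 (SE, edgeR adjusted p of 0.0229), and Fzd5, the Frizzled receptor known from Paneth cells, had 0.42 (adjusted p of 0.0132). Rnf43, a ubiquitin ligase that removes Frizzled from the surface and is itself a Wnt target, rose from 60.1 to 77.5 CPM, with a log2 fold change of 0.37 at an adjusted p of 0.0178. All 3 calls were lost without TG replicate 2, those of Fzd1 and Rnf43 also without WT replicate 4, and that of Rnf43 without TG replicate 1. Lgr4, a receptor of R-spondins, had 346 CPM in WT and 281 CPM in TG and was not called (adjusted p of 0.0829). The co-receptor Lrp5 had a log2 fold change of 0.11.

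Most Wnt target genes were not called. Of 15 genes, all tested, 2 were higher and 2 lower (13.3% each), beside 8.26% and 9.65% of all genes tested, and 11 were not called. Their median log2 fold change was -0.08. Axin2, a feedback inhibitor and widely used Wnt target, rose from 65.7 ± 12.7 CPM to 94.5 ± 9.97 CPM (SD, n = 4 each), with a log2 fold change of 0.52 ± 0.12 (SE) and an edgeR adjusted p of 0.0107. Prom1, a membrane protein of crypt base cells, fell from 204.5 ± 8.23 CPM to 130.0 ± 13.7 CPM (SD, n = 4 each), with a log2 fold change of -0.65 ± 0.09 (SE) and an edgeR adjusted p of 0.000751. Both calls were made in each of the 8 fits with 1 library omitted. Myc (0.32, adjusted p of 0.0408) and Cd24a (-0.40, adjusted p of 0.0300), a surface protein often used to sort Paneth cells, were kept in 2 and 3 of these fits, and both were lost with total counts only. Sox9, a transcription factor that Paneth cells require, had a log2 fold change of -0.12 (adjusted p of 0.438), and Ephb3, which positions Paneth cells at the crypt base, had -0.32 (adjusted p of 0.0613).

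Egf encodes the epidermal growth factor precursor, a membrane protein from which the soluble ligand is cut. The gene (ENSMUSG00000028017, chr3:129470410-129549093, minus strand) had 846, 775, 689 and 646 counts in TG replicates 1 to 4 and 368, 367, 367 and 465 counts in WT replicates 1 to 4. In CPM these were 52.9, 54.5, 38.9 and 49.1 in TG and 29.4, 25.6, 24.6 and 34.6 in WT. The lowest TG library, replicate 3, was above the highest WT library, replicate 4. Egf rose from a WT mean of 28.5 ± 4.56 to a TG mean of 48.9 ± 7.03 CPM (SD, n = 4 each). The log2 fold change amounted to 0.78 ± 0.13 (SE) at an edgeR adjusted p of 0.00180, and by p it ranked 151 among the genes tested. The ratio was 1.71 with a 95% interval from 1.42 to 2.07. Egf was called in each of the 8 fits with 1 library omitted, with log2 fold changes of 0.71 to 0.88. Within replicates 1 and 2 it was also called (log2 fold change of 0.97, adjusted p of 0.00160), while within replicates 3 and 4 it was not (0.58, adjusted p of 0.138). The difference between these 2 values was itself not called, with an edgeR interaction p of 0.119 and an adjusted p of 0.898.

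Tgfa, the gene for transforming growth factor alpha, encodes another ligand of the EGF receptor. The gene (ENSMUSG00000029999, chr6:86172041-86252728, plus strand) had 15.0, 14.1, 16.5 and 15.8 CPM in TG replicates 1 to 4 and 21.8, 15.7, 15.0 and 13.6 CPM in WT replicates 1 to 4. The groups overlapped and WT replicate 1 stood highest. The log2 fold change was -0.10 ± 0.14 (SE) at an edgeR adjusted p of 0.645, and the ratio of 0.933 had a 95% interval from 0.763 to 1.14. The sign was not stable, since the log2 fold change was 0.057 without WT replicate 1 and 0.026 with libraries scaled by their totals alone. Within replicates 1 and 2 the means were 14.6 CPM in TG and 18.7 CPM in WT, and within replicates 3 and 4 they were 16.2 and 14.3 CPM, a difference that was not called (edgeR interaction p of 0.0460, adjusted p of 0.864). As a ratio of levels per length, Egf to Tgfa was 1.00 ± 0.290 in WT and 1.79 ± 0.363 in TG (SD, n = 4 each), with TG replicate 3 (1.32) below WT replicate 4 (1.42). Egf to Wnt3 was 0.0393 ± 0.00629 in WT and 0.0729 ± 0.00576 in TG (SD, n = 4 each), without overlap. The size of these ratios depends on the length used, since Egf has 12225 exon bases and 5711 in its longest transcript, while Wnt3 has 3146 by either measure. The same lengths apply to all libraries, so the overlap of the groups does not depend on them. These ratios were chosen with the values known and were given no test.

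Areg, the gene for amphiregulin, a ligand of the EGF receptor best known from repair after injury, was at the floor of detection. The gene (ENSMUSG00000029378, chr5:91287451-91296291, plus strand) had 2, 0, 1 and 0 counts in TG replicates 1 to 4 and 1, 1, 1 and 3 counts in WT replicates 1 to 4. All 8 libraries were at or below 3 counts, so no fold change was given. A difference was not detectable at this depth (difference in CPM, exact two-sided permutation test, p = 0.2).

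Of 12 other EGF family ligands and shedding genes 7 were tested, 0 were higher and 1 was lower. Adam10, a membrane protease that cuts the EGF precursor and also processes Notch, fell from 67.0 ± 2.67 to 54.7 ± 4.51 CPM (SD, n = 4 each), with a log2 fold change of -0.29 ± 0.08 (SE) and an edgeR adjusted p of 0.0276. The call was kept in 3 of the 8 fits with 1 library omitted and was lost with total counts only. Adam17, the sheddase of Tgfa and Areg, and Rhbdf2, which carries Adam17 to the surface, each had a log2 fold change of 0.01. The ligand genes Hbegf (1.17 CPM in WT, 0.825 CPM in TG), Btc (2.21 and 2.27 CPM) and Nrg4 (0.838 and 1.38 CPM) were tested and not called, and are named here after their values were seen.

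The receptors of this family that were called higher in TG were Erbb2 and Erbb3. Among 12 ErbB receptor and feedback genes 11 were tested, 4 were higher and 0 lower, and at an unadjusted p under 0.05 the counts were 4 and 2. Erbb3, the kinase-impaired partner that binds neuregulins, rose from 91.9 ± 5.20 CPM to 141.3 ± 20.2 CPM (SD, n = 4 each), with a log2 fold change of 0.62 ± 0.10 (SE) and an edgeR adjusted p of 0.00185. Erbb2, the partner without a ligand of its own, rose from 25.4 to 36.5 CPM with a log2 fold change of 0.52 and an edgeR adjusted p of 0.00615. Lrig2, of a family of transmembrane proteins that act on ErbB receptors, had 0.56 (adjusted p of 0.0110), and the ubiquitin ligase gene Cblb had 0.40 (adjusted p of 0.0173). Erbb2, Erbb3 and Lrig2 were called in all 8 fits with 1 library omitted, and Cblb was lost without TG replicate 1. Lrig1, which restrains ErbB signalling in stem cells, had a log2 fold change of -0.11 and Cbl had 0.07, and neither was called. Egfr, the receptor of Egf, Tgfa and Areg, had 21.7 ± 3.25 CPM in WT and 17.7 ± 0.917 CPM in TG (SD, n = 4 each), a log2 fold change of -0.29 ± 0.11 (SE) that was not called (edgeR adjusted p of 0.0895), and Erbb4 had 0 counts. Both are named after their values were seen.

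Feedback genes of the MAPK pathway, which acts below these receptors, numbered 15, of which 12 were tested, 3 higher and 0 lower. These were the inhibitors Spry1 (log2 fold change of 0.72, edgeR adjusted p of 0.0263), Spred1 (0.43, adjusted p of 0.0447) and Spred2 (0.37, adjusted p of 0.0180). They were called in 3, 1 and 7 of the 8 fits with 1 library omitted, and the Spred1 call was also lost with limma voom. Egr1, an immediate early gene, had a log2 fold change of 0.43 at an adjusted p of 0.302, and Phlda1 had a log2 fold change of -0.08.

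Dll1 and Dll4 encode the Delta-like ligands through which secretory cells of the crypt activate Notch in stem cells. Dll1 (ENSMUSG00000014773, chr17:15587276-15597134, minus strand) had 33.7, 47.6, 42.4 and 53.5 CPM in TG replicates 1 to 4 and 30.2, 28.6, 39.4 and 36.9 CPM in WT replicates 1 to 4. TG replicate 1 lay within the WT range and the other TG libraries above it. The means were 44.3 ± 8.36 CPM in TG and 33.8 ± 5.17 CPM in WT (SD, n = 4 each). The log2 fold change was 0.39 ± 0.14 (SE), with an unadjusted p of 0.0161 and an edgeR adjusted p of 0.0726, so that Dll1 was not called. The ratio was 1.31 with a 95% interval from 1.06 to 1.61. It passed the threshold without TG replicate 1 (adjusted p of 0.0280), without WT replicate 3 (0.0497), with no filter on low counts (0.00336) and with a term for replicates 1 and 2 against 3 and 4 (0.0308). With no filter the log2 fold change was 0.38, nearly unchanged, but the SE was 0.10, and p-values of that fit are not comparable with those of the main fit.

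Dll4 (ENSMUSG00000027314, chr2:119156170-119166443, plus strand) had 39.2, 42.3, 42.7 and 46.9 CPM in TG replicates 1 to 4 and 53.9, 39.8, 45.0 and 36.9 CPM in WT replicates 1 to 4. The TG values fell within the WT range. The log2 fold change was -0.04 ± 0.11 (SE) at an edgeR adjusted p of 0.849, and the ratio of 0.975 had a 95% interval from 0.827 to 1.15. Its sign turned with total counts only (0.081) and without WT replicate 1 (0.073). The ratio of Dll1 to Dll4 per length was 0.628 ± 0.152 in WT and 0.819 ± 0.104 in TG (SD, n = 4 each), with overlap and no test.

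Jag1 encodes a Jagged ligand of Notch. The gene (ENSMUSG00000027276, chr2:136923373-136958693, minus strand) had 8.45, 9.92, 6.27 and 7.76 CPM in TG replicates 1 to 4 and 5.60, 6.20, 6.83 and 6.25 CPM in WT replicates 1 to 4. TG replicate 3 lay within the WT range and the other 3 above it. The means were 8.10 ± 1.52 CPM in TG and 6.22 ± 0.503 CPM in WT (SD, n = 4 each). With a log2 fold change of 0.38 ± 0.16 (SE), an unadjusted p of 0.0350 and an edgeR adjusted p of 0.121, Jag1 was not called. It was called in 0 of the 19 other settings, whose log2 fold changes ran from 0.10 to 0.63.

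**Figure D3:**
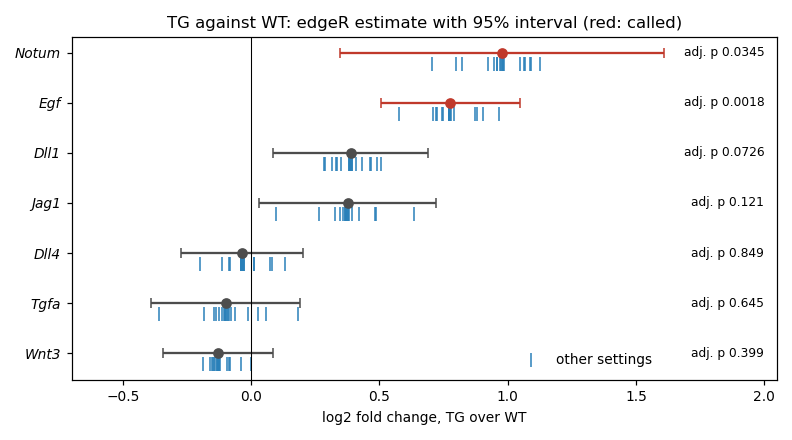
Log2 fold change of TG over WT for the 7 tested genes, with the edgeR estimate (red where called, grey where not), its 95% interval as a bar, and blue ticks for the values under the 19 other settings. The ticks of Egf (0.58 to 0.97) and Notum (0.70 to 1.13) lie above 0, and those of Tgfa and Dll4 fall on both sides of it.

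Of 12 genes for other Notch ligands and for ligand endocytosis 9 were tested, 2 were higher and 1 lower. Neurl1b, a neuralized ubiquitin ligase that drives endocytosis of Notch ligands, rose from 1.76 ± 0.383 CPM to 3.55 ± 0.376 CPM (SD, n = 4 each), with a log2 fold change of 1.01 ± 0.23 (SE) and an edgeR adjusted p of 0.00960. It was called in all 8 fits with 1 library omitted. Neurl3 (0.43, adjusted p of 0.0456) and Neurl1a (-1.23, adjusted p of 0.0429) of the same family had fold changes of opposite sign and were kept in 1 and 2 of those fits. The Neurl3 call was also lost with a term for replicates 1 and 2 against 3 and 4, and the Neurl1a call with limma voom and with total counts only. Mib1, the ubiquitin ligase of Delta-like ligands, had a log2 fold change of 0.14, and the endocytic adaptor Epn1 had -0.01.

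Notch receptors and their processing genes numbered 18, of which 14 were tested, 1 higher and 2 lower. Notch4 rose from 16.5 ± 1.72 CPM to 24.6 ± 1.91 CPM (SD, n = 4 each), with a log2 fold change of 0.57 ± 0.10 (SE) and an edgeR adjusted p of 0.00284. It was called in all 8 fits with 1 library omitted. Notch4 is best known from endothelium, and the endothelial markers were at the sums given above. The cell source of the Notch4 RNA was not tested. Psen2 (-0.40, adjusted p of 0.0277) and Ncstn (-0.27, adjusted p of 0.0332), subunits of the gamma-secretase that releases the Notch intracellular domain, were lower, were kept in 5 and 3 of these fits and were not called with total counts only. Furin, the protease that matures Notch receptors, had a log2 fold change of -0.01.

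Of 13 Notch targets and co-factors 9 were tested, 2 were higher and 0 lower. Heyl, a transcriptional repressor induced by Notch, rose from 4.49 ± 1.40 CPM to 8.92 ± 1.42 CPM (SD, n = 4 each), with a log2 fold change of 1.00 ± 0.20 (SE) and an edgeR adjusted p of 0.00520. The co-activator Maml3 had 0.40 (adjusted p of 0.0204). Heyl was called in all 8 fits with 1 library omitted and Maml3 in 5. Olfm4, a Notch-dependent gene of stem cells, had 1648 CPM in WT and 1799 CPM in TG (log2 fold change of 0.13, adjusted p of 0.586). Atoh1, the secretory lineage factor that Notch represses, had 155.5 CPM in WT and 134.6 CPM in TG (log2 fold change of -0.21, adjusted p of 0.238).

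Bst1 encodes the ectoenzyme through which Paneth cells can pass cyclic ADP-ribose to stem cells. The gene (ENSMUSG00000029082, chr5:43976227-44001328, plus strand) had 2, 8, 20 and 30 counts in TG replicates 1 to 4 and 0, 1, 0 and 5 counts in WT replicates 1 to 4. In CPM these were 0.125, 0.563, 1.13 and 2.28 in TG and 0, 0.0696, 0 and 0.372 in WT. TG replicates 3 and 4 lay above the other 6 libraries, and TG replicate 1 fell within the WT range. Over all libraries the counts were 60 in TG and 6 in WT. Bst1 did not reach the count filter and was not among the genes tested. The difference of 0.914 CPM gave p = 0.0571 in an exact two-sided permutation test, where 4 against 4 libraries cannot go below 0.0286. Without the filter, edgeR gave a log2 fold change of 3.11 ± 0.65 (SE) and an adjusted p of 6.90e-05, and DESeq2 gave 3.22 ± 1.02 (SE) and an adjusted p of 0.0137. The unfiltered edgeR fit put Egf, at a log2 fold change of 0.77, at an adjusted p of 2.26e-11, beside 0.00180 in the main fit. Its p-values are thus not comparable with those of the main fit. The TG mean was 0.344 CPM within replicates 1 and 2 and 1.71 CPM within replicates 3 and 4, against 0.0348 and 0.186 CPM in WT.

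Of 14 genes of cyclic ADP-ribose and NAD metabolism 10 were tested, 1 was higher and 3 were lower. Nampt, the rate-limiting enzyme of NAD salvage, fell from 32.1 ± 2.55 to 23.1 ± 2.30 CPM (SD, n = 4 each), with a log2 fold change of -0.48 ± 0.10 (SE) and an edgeR adjusted p of 0.00555. Enpp1, an ectoenzyme that cleaves nucleotides, had -0.45 (adjusted p of 0.0102), and the NAD kinase gene Nadk had -0.33 (adjusted p of 0.0130). Nampt and Enpp1 were called in all 8 fits with 1 library omitted, and Nadk was lost without TG replicate 2. With total counts only, and within replicates 1 and 2 or 3 and 4 alone, these 3 calls were lost. Nadsyn1, of NAD synthesis, had 0.29 (adjusted p of 0.0496) and was kept in 1 of these fits and in 4 of the 11 other settings, with DESeq2 among those that lost it. Cd38, the paralogue of Bst1 with the same activity, had 28.9 CPM in WT and 23.4 CPM in TG (log2 fold change of -0.30, adjusted p of 0.0537). Naprt had a log2 fold change of 0.16.

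**Figure D4:**
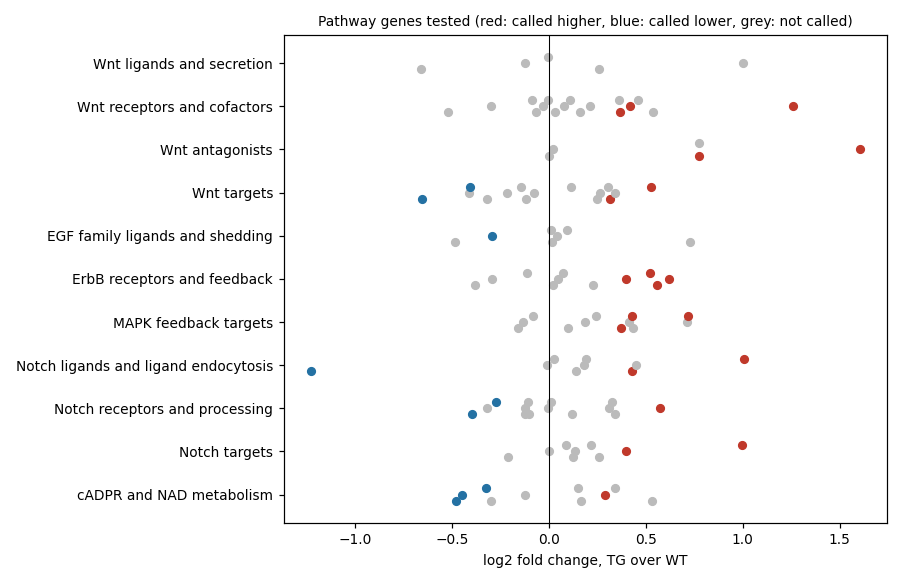
Log2 fold change of TG over WT for each tested gene of the 11 pathway lists, 1 point per gene (red called higher, blue called lower, grey not called), with the 9 niche genes left out. Wif1 lies farthest right at 1.60 and Neurl1a farthest left at -1.23. Grey points make up most of each row, also in the NAD list, where 4 of 10 are coloured.

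In total, the 11 pathway lists held 168 genes besides the niche genes, of which 114 were tested and 21 had 0 counts in all libraries. Of the tested genes 20 (17.5%) were higher and 9 (7.89%) lower, beside 8.26% and 9.65% of all genes tested, and the median log2 fold change was 0.10. Of the 29 called genes 11 were called in every fit that left out 1 library. The number of lower calls depended on the scaling. When libraries were scaled by their totals alone, the median of all genes moved from 0.01 to 0.12 on the log2 scale, and 21 list genes were higher and 1, Prom1, was lower. Within replicates 3 and 4 alone 0 list genes were called higher and 1 lower, with 17 and 10 at an unadjusted p under 0.05. Where a list had 0 calls in a direction above, 1 lower Wnt receptor gene, 1 higher EGF family gene and 2 lower ErbB genes had an unadjusted p under 0.05, and limma voom called 1 of the lower ErbB genes while DESeq2 called 0. For lower Wnt antagonists, MAPK feedback genes and Notch targets these counts were 0 as well.

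Lastly, the genes whose profile over the 8 libraries was most like that of each called niche gene were listed, among genes with a mean log2 CPM of at least 3. For Egf these were Rhobtb1 (Pearson r of 0.985, Spearman rho of 0.976) and Peli2 (0.983 and 0.952), with 145 of 8162 genes above an r of 0.9. For Notum they were Rec8 (0.973 and 0.952) and Tsc22d1 (0.966 and 0.929), with 17 of 8163 genes above 0.9. The 8 libraries share the difference between the groups and their scaling, so these values are descriptive.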

How the data were processed

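Sorted Paneth cells were sequenced in 8 libraries, 4 TG and 4 WT, grouped by the labels. Libraries were poly(A)-selected and stranded. The authors deposited whole-number counts per Ensembl gene ID, not normalized. The submitters' processing notes name FastQC 0.12.0, STAR 2.7.0a, DESeq2 and the build mm39, but which tool and annotation gave the counts, whether strand was used and how reads with several alignments were handled is not given in the sources used here. Symbols, positions and exon lengths came from GENCODE M39 on GRCm39, which matched 54749 of 55414 IDs.

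Counts were tested with edgeR 4.0.16 in R 4.3.3 (robust quasi-likelihood fits, TMM factors, filter by group, group as the only term, Benjamini-Hochberg adjustment at 0.05 over 11929 genes). The study names DESeq2 without a design. Fold changes compare TG with WT on the log2 scale, and their SE was derived from the F statistic. The steps were tested on simulated data. Replicates were checked for duplicated libraries and none was found, with a chi-square per degree of freedom of at least 5.20 between replicates.

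Alternatives were DESeq2 1.42.0, limma 3.58.1 (voom with weights for library quality), scaling by RLE factors or by totals alone, factors without Defa genes and Lyz1, 2 other filters, a replicate block, a term for replicates 1 and 2 against 3 and 4, each of these pairs alone, and each library left out. No value was a criterion for the niche genes, but they and the lists were chosen with earlier results of these data known. Named genes were the niche genes, the called genes of each list (at most 6, by p), the 2 most abundant not called, the 3 most abundant and the called genes of marker lists (named only beside a result here), and the 2 genes most like each called niche gene. Markers named for having 0 counts, and other names said to be so, were chosen after seeing values. A gene that the rule names is not reported here.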

Additional observations from a re-analysis of the deposited data

Results flagged for a closer look

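In WT replicate 4 Areg reached 0.223 CPM, far from the remaining WT values of 0.0669 to 0.0799 CPM. The gap was 0.917 of the whole range in WT. The value rests on 3 counts in WT replicate 4 against 1 count in each of the others. It was the one such case among 18 groups of 4 libraries examined. The limit used is passed by about 1 in 20 groups of continuous values, a rate that does not apply to tied counts at the floor.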

How the results depend on the processing

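The sign and call of Wnt3 and Jag1 were the same under all 19 other settings, those of Egf under 18 and those of Notum under 12, while Dll1 was called under 5. Tgfa and Dll4 were called under none, but their log2 fold changes turned sign with total counts only (0.026 and 0.081), with replicates 3 and 4 alone (0.18 and 0.13) and without WT replicate 1 (0.057 and 0.073), and that of Dll4 also with limma voom (0.0097) and without TG replicate 1 (0.010). With 1 library omitted they ran from -0.18 to 0.057 and from -0.11 to 0.073. Of the niche genes, 2 called higher became 4 with no filter (Dll1 and Bst1 added), 3 with DESeq2 (Bst1 added), 1 with limma voom, 1 with replicates 1 and 2 alone and 0 with replicates 3 and 4 alone, where 4 of the 9 had an unadjusted p under 0.05, and 1 to 3 when 1 library was left out. Over all genes, replicates 1 and 2 alone gave 500 higher and 638 lower, replicates 3 and 4 alone gave 113 and 104, and the fits with 1 library omitted gave 485 to 1045 higher and 550 to 1183 lower, lowest without TG replicate 2 and TG replicate 1. Total counts only gave 787 higher and 262 lower. Pathway genes, 20 higher and 9 lower, became 11 and 5 with replicates 1 and 2 alone, 0 and 1 with replicates 3 and 4 alone, where 17 and 10 had an unadjusted p under 0.05, and 1 lower with total counts only. With 1 library omitted there were 11 to 21 higher and 4 to 12 lower, and the counts fell by over 1.5 times without TG replicate 1 or 2 (both), WT replicate 4 (higher) or WT replicate 1 (lower). Fits to 2 against 2 libraries use fewer samples, and other causes were not tested.

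Between the TG and WT libraries of replicates 1 to 4 the correlations of deviations across genes were 0.04, 0.06, 0.28 and 0.22. These values were not set against libraries of unlike number, so they cannot decide whether replicate numbers pair the libraries. Y-linked counts did go with the replicate number in both groups. With a replicate block 1039 genes were higher and 1164 lower, and 3 niche genes were called, Dll1 being added (adjusted p of 0.0308). Areg and Bst1 had too few counts for the filter, and the TG libraries of Bst1 also ranged from 0.125 to 2.28 CPM. The 95% intervals given for the tested genes bound the changes that 4 against 4 libraries leave undecided.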
